A study of Oryza sativa with 2 samples.

Results

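The genes described here belong by name to enzyme families of lignin and flavonoid synthesis, and their signals were measured in the developing collar of rice. They are 2 cinnamyl alcohol dehydrogenases (OsCAD8A and OsCAD6), the laccase LAC24, the 4-coumarate:CoA ligase 4CL2 and the chalcone synthase OsCHS1. These 5 genes were picked because of their signals on the arrays compared here, and they were found by symbol or synonym in the annotation of the probe sets. They are read by 9 probe sets out of 57381 on the GeneChip Rice Genome Array, and the annotated probe sets as a whole stand for 17905 genes. The collar joins the blade of a rice leaf to its sheath and sets the angle of the leaf.

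Collars were taken from antisense OsLIC plants of line 2, a single transformed line, and from wild type plants, 1 array for each. The antisense plants express the whole OsLIC cDNA in the antisense direction under the maize ubiquitin1 promoter, which is active in most tissues, and they were selected on hygromycin. Both kinds of plants spent 2 weeks on MS medium after germination and then stood in the same field until heading, when 30 collars, 1 from each plant, were pooled for each RNA. The leaves had emerged by 2 to 3 cm, and neither the plants' age in days nor the rice cultivar is given in the sources used here. With 1 array per kind of plant there is no spread between samples. No p-value is therefore given, and every difference below is a difference between these arrays.

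The signals were computed and scaled to an overall intensity of 500 by the Affymetrix GeneChip Operating Software (GCOS). Ratios were taken with a floor of 20 on both arrays, and only probe sets with at least 100 on one array or the other (the signal minimum) were used. All log2 ratios are those of antisense OsLIC over wild type, and a difference was called from 2-fold, a log2 ratio of 1 or -1. The signal of the targeted gene, OsLIC, was 2069 under the antisense label and 219.8 under the wild type label, a log2 ratio of 3.23. The signal was higher, not lower, under the label of the plants meant to have less OsLIC. By itself it does not show whether the plants' own OsLIC mRNA was lost. Which strand the probe set reads, and whether it also reads the RNA of the transgene, was not checked. An exchange of the labels was not tested either, and it would turn the sign of every log2 ratio below. The arrays are therefore named by their labels, and all directions hold only as labelled.

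Phenylpropanoid synthesis starts from phenylalanine. Phenylalanine ammonia-lyase (PAL), cinnamate 4-hydroxylase (C4H) and 4-coumarate:CoA ligase (4CL) lead to 4-coumaroyl-CoA, where the pathway divides. In the lignin branch, hydroxycinnamoyl transferases (HCT), O-methyltransferases and cinnamoyl-CoA reductase (CCR) shape the precursors, cinnamyl alcohol dehydrogenase (CAD) makes the monolignols, and laccases oxidise these in the cell wall so that they join into lignin. In the flavonoid branch, chalcone synthase (CHS) takes up the same 4-coumaroyl-CoA and chalcone isomerase (CHI) closes the flavanone ring. Lignin stiffens the walls of vascular and fibre cells of the leaf and stem.

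The sequences that tie the arrays to another assay of the study are the RT-PCR primers listed for AB000801, the accession of the brightest OsCHS1 probe set. OsCHS1 was the only gene of the enzyme families described here with primers matched by accession. They are shown 5′ to 3′, as listed by the study.
OsCHS1 sense primer: gcctgcgtgctcttcat
OsCHS1 antisense primer: ccaaccaaaccacccataca

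OsCAD8A, on chromosome 9, had the largest log2 ratio of the 26 pathway genes past the minimum. Its single probe set (AK059858) reached 885 on the array labelled antisense OsLIC and 33.6 on the array labelled wild type, 26.3-fold higher under the antisense label (log2 ratio 4.72). The signal on the array labelled wild type was below the signal minimum and below that array's median of 67.2, so the size of the fold depends on how dim signals are treated: with 50 added to both signals the log2 ratio was 3.48. With 100 required on both arrays the gene was not used. Here and below, fewer cells of a type and less RNA per cell cannot be told apart, since whole collars were pooled.

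OsCAD6, on chromosome 4, was bright on both arrays. Its probe set (AK071484) had signals of 4032 under the antisense label and 2062 under the wild type label. The log2 ratio of 0.97 was just short of 2-fold.

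The log2 ratios of the CAD paralogues lay on both sides of 0. Of the 10 CAD genes named in the RefSeq annotation, 7 have a probe set and 6 passed the minimum. OsCAD8A was called higher and none was called lower, and the median log2 ratio of the 6 was -0.12. In the background, 6.58% of 14742 genes were past 2-fold by their brightest probe set, 3.73% higher and 2.85% lower. Since the genes called here were chosen for these values, nothing is read from that comparison. OsCAD2, also named GH2, is the CAD whose loss gives gold hulls and internodes with less lignin. It had signals of 3223 on the array labelled antisense OsLIC and 4261 on the array labelled wild type (log2 ratio -0.40). OsCAD3 had signals of 2816 and 4284 in the same order, a log2 ratio of -0.61, and OsCAD1 had a log2 ratio of -0.18. The log2 ratios of the bright genes OsCAD6 and OsCAD3 therefore lay 1.57 apart, on either side of 0, with OsCAD6 picked for its value. For all probe sets with a brighter signal of 1000 to 5000, the 5th to 95th percentile of log2 ratios spanned -0.66 to 0.67. OsCAD1, OsCAD2 and OsCAD3 lay inside that span. OsCAD7, also named FC1 after the flexible culm of its mutant, stayed below the minimum with signals of 25.3 under the antisense label and 58.1 under the wild type label.

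OsCAD8A is the first of 4 neighbouring CAD genes on chromosome 9, followed by OsCAD8B, OsCAD8C and OsCAD8D in the RefSeq annotation (assembly ASM3414082v1). OsCAD8B and OsCAD8D have no probe set assigned. OsCAD8C, the other measured gene of the cluster, had signals of 5748 on the array labelled antisense OsLIC and 6001 on the array labelled wild type by its bright probe set (AK067085), a log2 ratio of -0.06. Its second probe set (AK072000) had signals of 94.0 and 4.17 in the same order, below the minimum on both arrays. The 3 coding genes on the other side of OsCAD8A had log2 ratios between -0.15 and 0.01. Near-identical copies can share hybridisation, and the probe sequences were not checked for it.

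**Figure D1:**
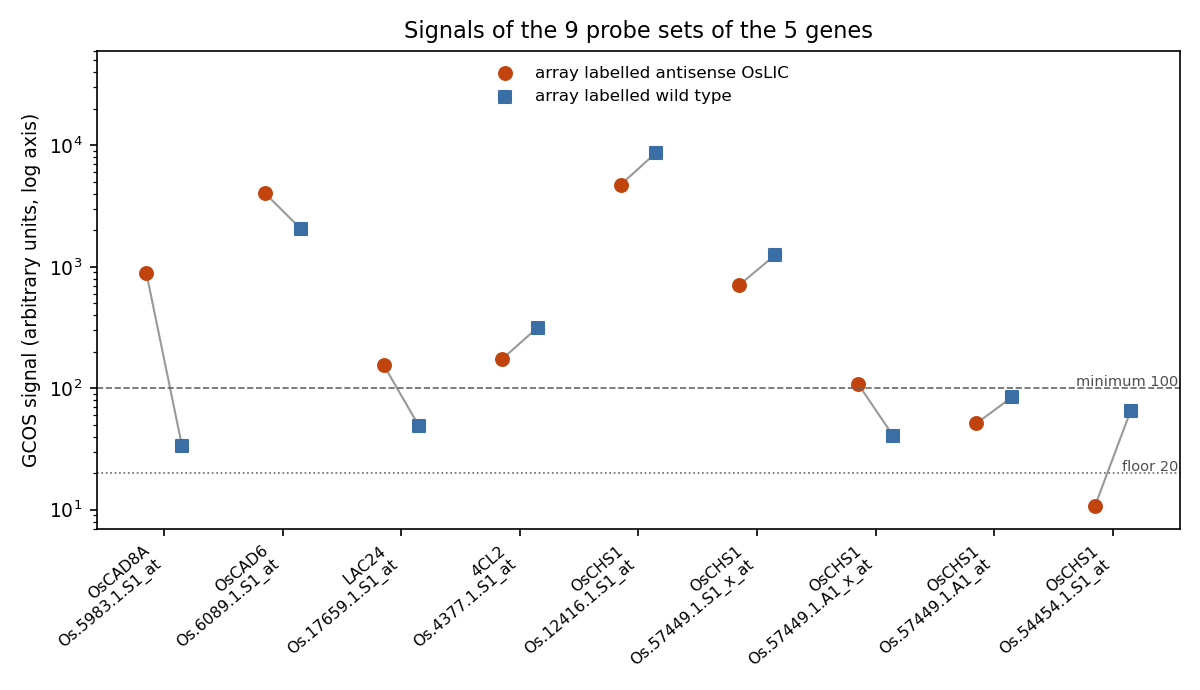
GCOS signal (log axis) of the 9 probe sets of the 5 genes, 1 point per array, with the array labelled antisense OsLIC as circles and the array labelled wild type as squares. OsCAD8A, OsCAD6 and LAC24 were brighter under the antisense label, 4CL2 and the bright OsCHS1 probe sets were dimmer, and 1 dim OsCHS1 probe set ran the other way.

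LAC24, on chromosome 12, was called higher. Laccases are copper oxidases that couple monolignols in the wall. The LAC24 probe set (BI813311) had signals of 156 on the array labelled antisense OsLIC and 48.7 on the array labelled wild type, 3.20-fold higher under the antisense label (log2 ratio 1.68). Both signals were dim, the one under the wild type label was below the minimum, and with 50 added to each the log2 ratio was 1.06. The call was lost at a minimum of 200 or 500 and with 100 required on both arrays.

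Of 12 laccase genes named in the annotation, 9 have a probe set and 4 passed the minimum. LAC24 alone among these was past 2-fold, none was called lower, and their median log2 ratio was 0.53. LAC7 and LAC10 ran in the direction of LAC24 without reaching 2-fold. LAC7 had signals of 983 under the antisense label and 690 under the wild type label (log2 ratio 0.51). LAC10 had signals of 250.4 and 171 in the same order, a log2 ratio of 0.55. LAC3 ran the other way, with signals of 305 and 418 and a log2 ratio of -0.45. Among those under the minimum, LAC4 had signals of 63.7 on the array labelled antisense OsLIC and 27.5 on the array labelled wild type, and the brighter signals of LAC15, LAC19, LAC20 and LAC23 ranged between 4.77 and 38.2. Thus 5 of the 9 laccases on the array did not reach the signal minimum in these collars. Of all 57194 probe sets that are not controls, 26697 passed it, so nothing particular to laccases is read from this count.

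4CL2, on chromosome 2, had the lowest log2 ratio of the 4CL genes. In rice it is the 4CL tied to flavonoid synthesis, while 4CL3 is the one tied to lignin. Its probe set (AK105636) had signals of 174 on the array labelled antisense OsLIC and 316.2 on the array labelled wild type, a log2 ratio of -0.86 that did not reach 2-fold.

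All 5 named 4CL genes have a probe set past the minimum. None was called in either direction, and their median log2 ratio was 0.19. 4CL3 had signals of 2787 under the antisense label and 2677 under the wild type label (log2 ratio 0.06). 4CL4, also named RAL1, had signals of 3930 and 3189 in the same order (0.30), and its second probe set was below the minimum on both arrays, with 88.4 under the antisense label and a signal under the floor of 20 under the wild type label (log2 ratio 2.14 at the floor). 4CL5 (log2 ratio 0.49) and 4CL1 (0.19) also had log2 ratios above 0. 4CL2 was the only one of the 5 below 0. The difference of its log2 ratio from that of 4CL3, the nearest, was -0.92, and from that of 4CL5, the furthest, -1.35. Of the 4CL-like genes, 4CLL4 had a log2 ratio of 0.45 and 4CLL1 one of -0.33. The gene next to 4CL2 on the chromosome, without a name in the annotation, had log2 ratios of -1.46 and -0.75 by its 2 probe sets, with brighter signals of 109.7 and 396.6. The neighbour on the other side, tom1, had one of 0.05.

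OsCHS1, on chromosome 11, is read by 5 probe sets, which did not move together. The brightest (AB000801) had signals of 4737 on the array labelled antisense OsLIC and 8720 on the array labelled wild type, a log2 ratio of -0.88. A second (D29697, with S1_x_at at the end of its name) had signals of 707 and 1243 in the same order, a log2 ratio of -0.81. These bright probe sets lay close together, neither at 2-fold. Another of the accession D29697 (A1_x_at) ran the other way, with signals of 109.3 under the antisense label and 40.3 under the wild type label, 2.71-fold higher (log2 ratio 1.44). The suffix _x_at marks a probe set whose probes can bind other transcripts, and the second probe set (S1_x_at) carries it as well. Which strand the A1 probe sets read is not given in the annotation, so they may not read the OsCHS1 mRNA. The last 2 stayed below the minimum, with signals of 51.4 on the array labelled antisense OsLIC and 84.5 on the array labelled wild type (D29697, A1_at) and of 10.7 and 64.8 (AK105202) in the same order. OsCHS2, the other chalcone synthase named in the annotation, has no probe set assigned, so no paralogue could be compared at this step.

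The next enzyme of the flavonoid branch, CHI, had signals of 1449 on the array labelled antisense OsLIC and 2611 on the array labelled wild type, a log2 ratio of -0.85. The brightest probe sets of 4CL2, OsCHS1 and CHI therefore had log2 ratios between -0.88 and -0.85, all under 2-fold. Since 4CL2 and OsCHS1 were picked for these values, nothing is read from how close the log2 ratios lie. None of the later flavonoid steps (flavanone 3-hydroxylase, flavonoid 3′-hydroxylase, dihydroflavonol reductase, anthocyanidin synthase) was measured by a named probe set.

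**Figure D2:**
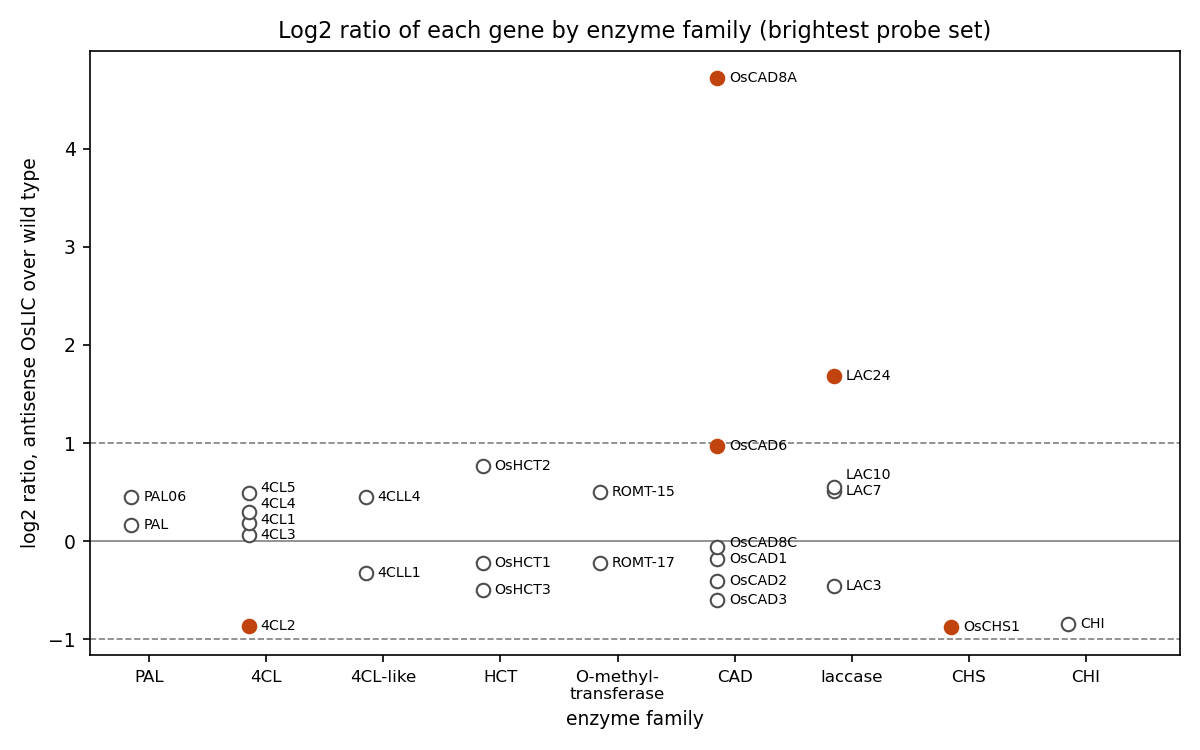
Log2 ratio of antisense OsLIC over wild type for each gene past the signal minimum, by its brightest probe set, in columns of enzyme families. Filled points are the 5 chosen genes and open points their paralogues and other enzymes of the pathway, and dashed lines mark 2-fold. OsCAD8A (4.72) and LAC24 (1.68) lie above the upper line, and no gene lies below the lower one.

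Over all 34 named genes of these families that have a probe set, 26 passed the minimum, of which 2 were called higher (OsCAD8A and LAC24) and none was called lower, beside the 6.58% of all genes given above. At a minimum of 200 or 500 the count called higher was 1, and with 100 required on both arrays it was 0. The median log2 ratio of the 26 genes was 0.11, against -0.01 for all genes past the minimum, with 14 genes above 0 and 12 below.

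Neither PAL gene was called, and neither was any transferase or methyltransferase. PAL (a gene with that name alone) had log2 ratios of -0.13 to 0.17 by its 4 brightest probe sets and 0.58 by the fifth, and its brightest probe set had signals of 20622 under the antisense label and 18351 under the wild type label. The other PAL gene, PAL06 or ZB8, had log2 ratios of 0.45 and 0.53 by its probe sets. Of the transferases and methyltransferases, OsHCT2 had signals of 2389 on the array labelled antisense OsLIC and 1409 on the array labelled wild type (log2 ratio 0.76), OsHCT1 had a log2 ratio of -0.23, and OsHCT3 one of -0.50 by one dim probe set and 0.81 by another. ROMT-15 had a log2 ratio of 0.50, while the 4 probe sets of ROMT-17 stayed between -0.22 and 0.06. OsCCR1 was below the minimum on both arrays, with signals of at most 31.9. No gene of C4H, or of the lignin hydroxylases C3'H and F5H, was found by name in the annotation, so these steps were not measured.

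How often a probe set passes 2-fold depends on its brightness, so the genes were set beside all probe sets of their class of signal on the brighter array. Over all classes, 9.91% of 26697 probe sets were past 2-fold. The 5 genes were picked for these values, so their places in the spans are a description only. OsCAD8A, LAC24 and the dim OsCHS1 probe set are not read against the spans. Their class is set by the only array on which they passed the minimum. Of 5614 probe sets with a signal of 100 to 200, 24.5% were past 2-fold, and the 5th to 95th percentile of their log2 ratios spanned -1.71 to 1.88. LAC24 (1.68) and the dim OsCHS1 probe set that ran the other way (1.44) fall in this class, but for the reason given they are not read against its span. Of 8323 probe sets with a signal of 1000 to 5000, 4.01% were past 2-fold, and the span was -0.66 to 0.67. OsCAD6 (0.97) lay above it and CHI (-0.85) and the second OsCHS1 probe set (-0.81) below it, as did the brightest OsCHS1 probe set (-0.88) in its class above 5000, where the span was -0.63 to 0.70. 4CL2 (-0.86) lay inside the span of its class of 200 to 500, -0.98 to 1.01. OsHCT2 (0.76) lay above the span of its class of 1000 to 5000. By their brightest probe set, 21 of the 26 pathway genes lay inside the span of their class, 2 below it and 3 above it. These counts include OsCAD8A and LAC24, which are not read against the spans. A span of this kind leaves some of all probe sets outside it by construction, so nothing is read from these counts. These spans describe all probe sets of the array and are not an error of a single gene.

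**Figure D3:**
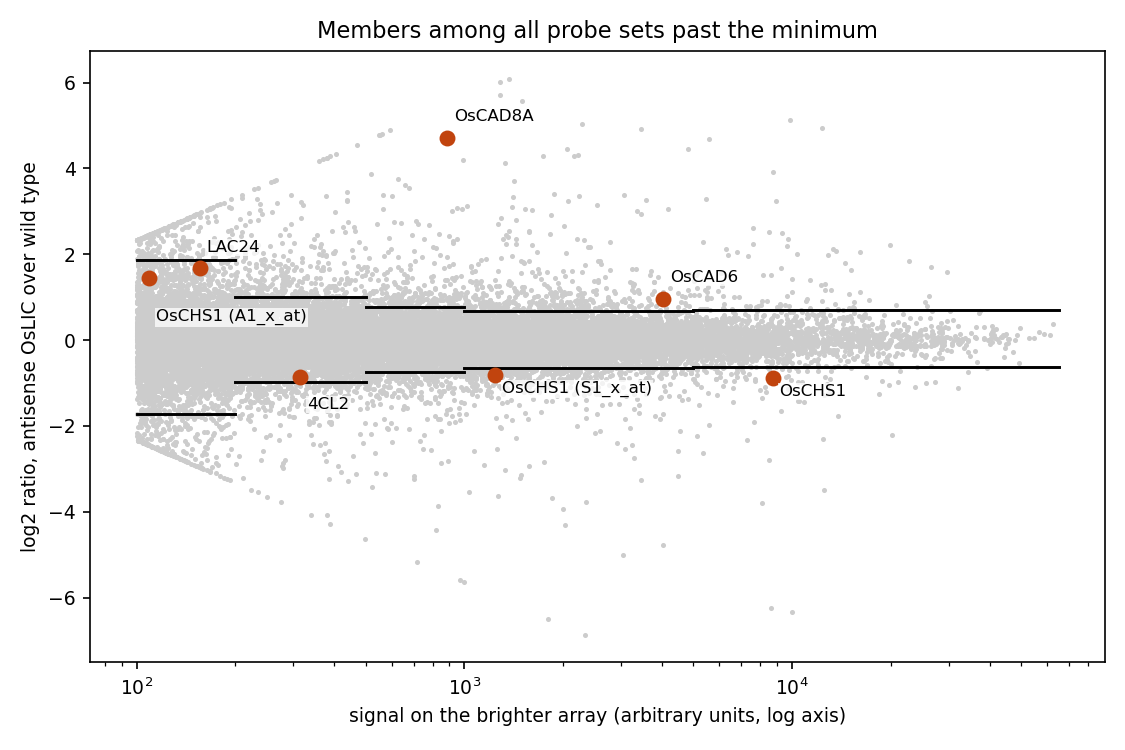
Log2 ratio of antisense OsLIC over wild type against the signal on the brighter array (log axis) for all 26697 probe sets past the minimum (grey), with the 7 probe sets of the 5 genes that passed it marked. Black lines are the 5th and 95th percentile of each brightness class. 4CL2 lies between them, OsCAD6 above and the bright OsCHS1 probe sets below. The genes were picked for these values, so these places are a description only. OsCAD8A, LAC24 and the dim OsCHS1 probe set (A1_x_at) are not read against the lines. Their class is set by the only array on which they passed the minimum.

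Genes of these families with more than 1 probe set past the minimum differed in how closely these lay together. The 2 probe sets of PAL06 differed by 0.08 on the log2 scale, the 4 of ROMT-17 spanned 0.28 and the 5 of PAL 0.72. OsHCT3, whose signals were at most 183, spanned 1.31, and the 3 OsCHS1 probe sets past the minimum spanned 2.32. OsCAD8A, OsCAD6, LAC24 and 4CL2 have 1 probe set each, so no such check could be made for them.

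**Figure D4:**
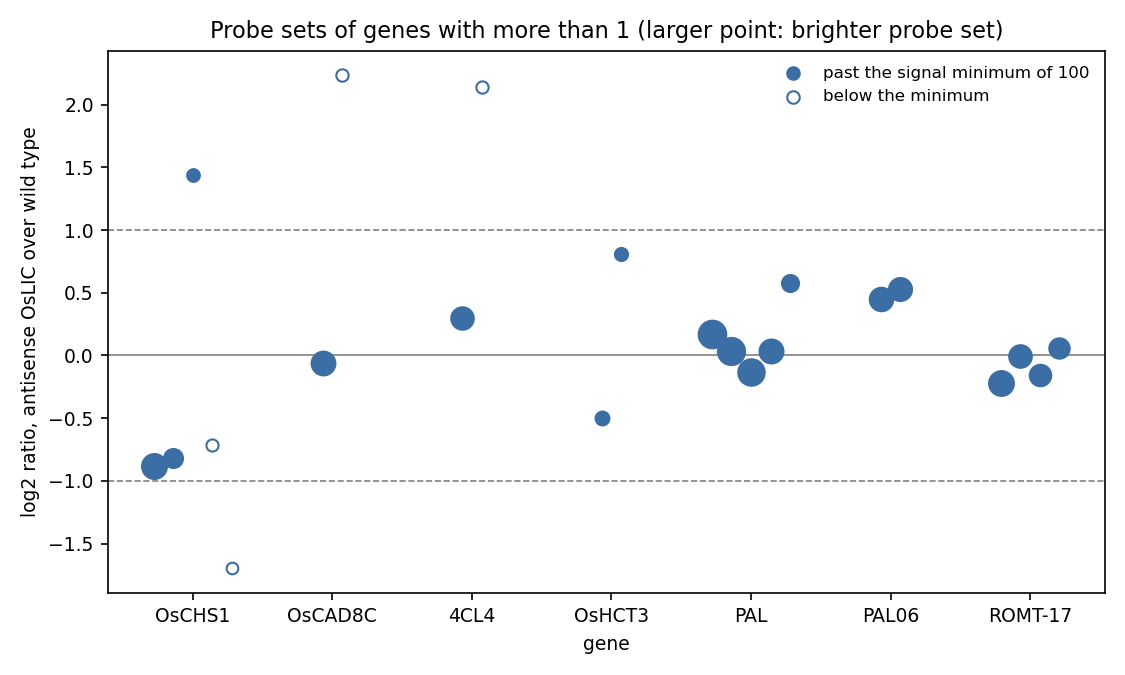
Log2 ratio of antisense OsLIC over wild type for every probe set of the 7 pathway genes with more than 1, with larger points for brighter probe sets and open points for those below the minimum. The points of PAL06 lie 0.08 apart, and each of the genes other than PAL06 and 4CL4 has probe sets on both sides of 0.

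The pooled collars hold several tissues. OsLG1, the LIGULELESS1 gene needed for the collar to form, had signals of 641 on the array labelled antisense OsLIC and 493.5 on the array labelled wild type. Of 8 listed markers of cells that form secondary walls, where lignin is laid down, 4 were found by name among the annotated probe sets. A marker not found by name may still be on the array. These were OsCesA4, OsCesA7 and OsCesA9, which make the cellulose of such walls, and BC1. All passed the minimum without being called, with log2 ratios of 0.18 to 0.79, a median of 0.43 and a summed signal of 1996 under the antisense label and 1422 under the wild type label. Their part in the log2 ratios of the CAD and laccase genes was not tested. Of 11 listed markers of photosynthetic cells, 2 were found by name, and their brightest probe sets ran in opposite directions. The Rubisco small subunit gene OsrbcS had a log2 ratio of 0.79 by the brightest of its 4 probe sets, which ends in _x_at. CAB2R, of the chlorophyll-binding proteins, had signals of 12844 on the array labelled antisense OsLIC and 25685 on the array labelled wild type, just under 2-fold. These are the signals of the brightest of its 2 probe sets. Of 10 floral MADS-box genes, all found, 2 passed the minimum. OsMADS2 was called lower, with signals of 30.5 on the array labelled antisense OsLIC and 155 on the array labelled wild type, and OsMADS16 had a log2 ratio of 0.24. The summed signal of the floral list was 1437 under the antisense label and 1407 under the wild type label. OsMADS16 alone gave 1179 and 1001 of these in the same order, so the sums say little about the other floral genes. OsMADS6 and OsMADS13 had signals under 20 on both arrays. What these markers contribute to the log2 ratios of 4CL2, OsCHS1 and CHI was not tested.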

How the data were processed

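RNA of pooled collars was hybridised to GeneChip Rice Genome Arrays. The deposited values are 1 intensity (GCOS signal) per probe set and array, which the authors scaled to 500 on each array. The version of GCOS is not given in the sources used here. The values are linear, and their trimmed mean was checked (500.1 on both arrays). Left out were 187 control probe sets. Probe sets were joined to genes by the identifier in the platform annotation and named through symbols and synonyms of RefSeq. Of all probe sets, 22436 have 1 gene, 95 several and 34850 none, so that enzymes without a name in these tables are not counted. For each gene the brightest probe set past the minimum, by mean log2 signal, was taken. The 4CL-like genes were kept apart from the 4CL genes.

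Named were all probe sets of the 5 genes, every CAD, laccase, 4CL and CHS gene past the minimum, up to 3 genes of each other family, and OsLIC. Outside this rule, and after their values were seen, named genes below the minimum, chromosomal neighbours and further probe sets were added. The members and lists were chosen with earlier results of these data known. Alternatives were median centring, quantile normalization, loess (fraction 0.4), a pseudocount of 50, a 3-fold threshold, minima of 50, 200 and 500, none at all or 100 on each array, the mean of a gene's probe sets, and leaving out the less specific types _x_at and _s_at. The code was tested on simulated data. Python 3.11.15, pandas 2.3.3, statsmodels 0.14.6 and matplotlib 3.10.9 were used. The number of arrays limits the precision.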

Additional observations from a re-analysis of the deposited data

How the results depend on the processing

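Of 203 values recomputed under other settings, 186 stayed within 0.5 on the log2 scale or, for counts, within 1.5 times. Some of these could hardly move. No 4CL or CHS gene was called under any setting, and median centring shifts every log2 ratio by the same small amount. The share that stayed is therefore no measure of how firm the calls are. No called log2 ratio changed sign. The median over all families lay between -0.0023 and 0.17. It was below 0 with 100 required on both arrays and without the probe sets ending in _x_at or _s_at. Under median centring, quantile normalization, loess and the pseudocount, the log2 ratio of OsCAD6 stayed between 0.95 and 0.98, that of 4CL2 between -0.86 and -0.71 and that of the brightest OsCHS1 probe set between -0.90 and -0.87. With a pseudocount of 50 the log2 ratio was 3.48 for OsCAD8A, 1.06 for LAC24 and 0.82 for the dim OsCHS1 probe set of D29697, which is then under 2-fold.

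With no minimum, and likewise with a minimum of 50, the CAD genes called lower were 1 (OsCAD7), the laccases called higher were 2 (LAC24 and LAC4), and the genes called lower over all families were 1. At a minimum of 200, and of 500, no laccase was called higher (0), since LAC24 is below it, and over all families 1 gene was. With 100 required on both arrays, 0 CAD genes, 0 laccases and 0 genes over all families were called higher, as OsCAD8A and LAC24 were both dim on the array labelled wild type. With the mean over probe sets in place of the brightest, the value for OsCHS1 was -0.085, since its dim probe set ran the other way. The cause of that disagreement was not tested. No paired analysis was possible because there is 1 array per kind of plant. Leaving out an array was not possible for the same reason.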
